A study of Mus musculus with 2 samples.

Results

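Fibroblast growth factor (FGF) signalling and its output through the kinase ERK were followed through 10 genes in mouse embryonic stem cells (ESCs) and epiblast-like cells (EpiLCs) with and without Cnot8. The 10 genes were taken by symbol and were each found once among the 32286 features of both libraries. They comprised the ligands Fgf4 and Fgf17, the receptors Fgfr1 and Fgfr2, the feedback inhibitors Spry2, Spry4, Dusp6 and Spred1, and the transcription factors Etv4 and Etv5. The protein made from Cnot8 is one of the enzymes with which the Ccr4-Not complex removes poly(A) from mRNA 3′ ends.

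FGF ligands bind receptor tyrosine kinases at the cell surface and, through Ras, Raf and MEK, activate ERK. In ESCs the ligand Fgf4 is made by the cells themselves, and ERK activity is known to favour the departure from the naïve state. Active ERK induces the transcription of its own inhibitors and of ETS-family factors, so transcripts of such feedback genes are widely used as a readout of the pathway.

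The data were 2 droplet-based single-cell libraries, 1 of ESCs kept in serum/LIF (0 h) and 1 of 48h-EpiLCs kept for 48 h on Matrigel in N2B27 medium with bFGF at 12 ng/ml, activin A at 20 ng/ml and KSR at 1%. Each was a mixture of equal numbers of Cnot8 KO cells and WT cells with the tdTomato-expressing reporter ROSA mT/mG, all labelled as ICR strain. The KO line came from blastocysts of Cnot8 heterozygous parents carrying a CRISPR/Cas9 mutation at exon 2, and ESC lines were propagated from a picked single colony, so line and clone cannot be told apart. The methods describe EpiLCs made from ESCs in 2i/LIF, which contains a MEK inhibitor, while the ESCs sequenced here came from serum/LIF. The medium in which the sequenced EpiLCs had been kept before was not stated. The methods name ICR embryonic fibroblasts inactivated with mitomycin C as feeder cells. They do not state whether the sequenced ESCs were kept on these feeders. There was 1 library per stage and no replicate, so no test was run, stage and library cannot be told apart, and every interval given covers counting error only.

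The filter of at least 1000 genes and at most 10% mitochondrial UMIs per cell left 11054 of 13184 barcodes in ESCs and 9400 of 12427 in 48h-EpiLCs. A cell was taken as WT when it had at least 1 tdTomato UMI and 0 UMIs of the 4 Y-linked genes Ddx3y, Eif2s3y, Kdm5d and Uty, and as KO when it had 0 tdTomato UMIs and at least 2 Y-linked UMIs. This gave 435 WT and 2978 KO ESCs, with medians of 13151 and 13368 UMIs per cell, and 368 WT and 2977 KO 48h-EpiLCs, with medians of 15598 and 17628 UMIs. The other 7641 kept ESCs and 6055 kept 48h-EpiLCs met neither rule, 35 of them in each library because they held both tdTomato and at least 2 Y-linked UMIs. Only 1499 of the 2978 KO ESCs held at least 3 Y-linked UMIs. By the feeder marker list used below, 64 of the KO ESCs and 2 of the WT ESCs were feeder fibroblast-like. The KO class may therefore hold feeder cells. Because the KO line carried Y-linked transcripts and the WT line was defined by their absence, sex and genotype cannot be told apart. The libraries shared 41 barcodes. Cnot8 itself was at 43.1 CPM (UMIs of the gene per 1000000 UMIs of the class) in WT ESCs, 72.1 CPM in KO ESCs, 49.7 CPM in WT 48h-EpiLCs and 62.6 CPM in KO 48h-EpiLCs. The reads come from the 3′ end of the transcript and not from exon 2, so this level is no check of the KO label.

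Markers of pluripotent cells summed to between 1697 and 2024 CPM in the 4 classes. Naïve markers summed to 1027 CPM in WT and 1312 CPM in KO ESCs, and to 115 and 226 CPM in the 48h-EpiLCs. The higher KO sums came mainly from Zfp42 (304 and 603 CPM in WT and KO ESCs) and Klf2 (399.7 and 462 CPM), whereas Nanog (84.5 and 56.1 CPM) and Klf4 (155 and 92.0 CPM) were lower in KO ESCs, and the 4 genes had the same directions in 48h-EpiLCs. Formative markers went the other way, from 309.7 and 351 CPM to 1109 and 954 CPM.

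Fgf4, the main FGF of the pluripotent epiblast, differed most between the lines among the 9 genes that reached the expression minimum in ESCs. It was at 143 CPM (95% exact Poisson interval 134 to 153) in WT ESCs, 65.3 CPM (63.0 to 67.7) in KO ESCs, 101 CPM (93.2 to 109) in WT 48h-EpiLCs and 54.7 CPM (52.8 to 56.6) in KO 48h-EpiLCs. Both KO classes thus lay below both WT classes, and no neighbouring pair in this order overlapped within counting error. KO cells had 2.20-fold less Fgf4 in ESCs (log2 ratio -1.14, exact binomial interval -1.24 to -1.02) and 1.85-fold less in 48h-EpiLCs (log2 ratio -0.89, -1.01 to -0.76). The stage difference was smaller, at a log2 ratio of -0.51 (-0.66 to -0.36) in WT and -0.26 (-0.33 to -0.18) in KO. When lines were taken without tdTomato, from the absence or presence of Y-linked and Ipp transcripts in cells of at least 8000 UMIs, the log2(CPM + 1) ratio of KO over WT was -0.78 in ESCs and -0.68 in 48h-EpiLCs.

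Fgf4 lies on chr7:144847367-144865243 (GRCm38, plus strand), with no other counted gene overlapping it. Its promoter and 2 windows of its 3′ UTR are shown because it had the widest gap between the lines in ESCs among the 9 genes and because deadenylases act on the 3′ part of an mRNA. The promoter, chr7:144861136-144861435 on the plus strand (RefSeq, GRCm38.p6), runs from 250 bases before to 50 bases after the annotated start. Capitals mark GGGCGG, the GC-box motif searched on both strands, which occurred 2 times here. At least 1 such motif was held by 35.7% of the 32851 promoters of the same length, and 2 or more by 19.5%.
Fgf4 promoter: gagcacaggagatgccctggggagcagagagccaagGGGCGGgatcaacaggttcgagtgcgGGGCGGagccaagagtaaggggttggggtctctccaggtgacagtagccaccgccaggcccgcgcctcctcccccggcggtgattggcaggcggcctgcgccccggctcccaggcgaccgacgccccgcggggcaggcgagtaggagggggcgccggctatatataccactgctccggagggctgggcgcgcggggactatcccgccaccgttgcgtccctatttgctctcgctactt
In the 3′ UTR of 2302 bases, the AU-rich pentamer ATTTA (searched on the sense strand only) occurred 6 times, at 2.61 per 1000 bases. Over all 20495 genes with an annotated 3′ UTR the density was 1.94 per 1000 bases, and 61.8% held at least 1. The windows below hold pentamers that begin 101 and 140 bases after the stop codon, at chr7:144863032-144863056 and chr7:144863071-144863095, with that pentamer in capitals.
Fgf4 window 1: ggtctaagatATTTAaattatttaa
Fgf4 window 2: acgcccaattATTTAtaattttatg
The pentamer occurred at least once in the 3′ UTR of 8 of the 10 genes and was not found in those of Fgf17 and Etv4. The nonamer TTATTTATT was found in none of the 10, against 6.94% of all genes with a 3′ UTR. The 3′ UTRs of the 10 genes were longer, with a median of 1491 bases against 804 for all genes. Of the 6375 genes with at least 1491 bases, 14.3% held the nonamer. These matches describe the letters of the annotated transcripts and were not tested against the levels.

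Fgf17, a ligand of the FGF8 subfamily at chr14:70636203-70642268 (minus strand), differed between the lines and between the stages in the same direction as Spry4. It was at 18.8 CPM (15.6 to 22.6) in WT ESCs, 9.84 CPM (8.93 to 10.8) in KO ESCs, 7.23 CPM (5.28 to 9.68) in WT 48h-EpiLCs and 2.58 CPM (2.19 to 3.02) in KO 48h-EpiLCs. Fgf17 was lower in KO cells and lower in 48h-EpiLCs, and only the middle pair, KO ESCs and WT 48h-EpiLCs, was within counting error of each other. The KO over WT log2 ratio was -0.94 (-1.24 to -0.63) in ESCs and -1.49 (-1.98 to -0.97) in 48h-EpiLCs, and the latter rests on 45 UMIs in WT cells. Its stage log2 ratio was -1.38 (-1.91 to -0.87) in WT and -1.93 (-2.21 to -1.66) in KO, the largest stage difference among the 10 genes in either line.

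Fgfr1, the FGF receptor usually most abundant in pluripotent cells, lies on chr8:25513654-25575718 (plus strand), where the antisense gene Gm16159 overlaps it. Its level was 28.6 CPM (24.5 to 33.1) in WT ESCs, 36.6 CPM (34.8 to 38.4) in KO ESCs, 46.5 CPM (41.3 to 52.1) in WT 48h-EpiLCs and 41.2 CPM (39.6 to 42.9) in KO 48h-EpiLCs. The WT ESCs were thus the lowest class and the 2 classes of 48h-EpiLCs could not be separated. KO exceeded WT in ESCs by a log2 ratio of 0.35 (0.13 to 0.59), but was at -0.17 (-0.35 to 0.01) in 48h-EpiLCs. The stage log2 ratio was 0.70 (0.42 to 0.98) in WT and 0.17 (0.08 to 0.26) in KO. Feeder fibroblast-like cells held 107 CPM of Fgfr1. The feeder markers summed to 38.7 CPM in KO ESCs against 11.5 CPM in WT ESCs, and to 11.7 and 8.04 CPM in KO and WT 48h-EpiLCs, and 0 to 3 of the 8 markers were at 0 in a class. With feeder-like and endoderm-like cells left out, the KO over WT ratio of Fgfr1 in ESCs was 0.26 on the log2(CPM + 1) scale, against 0.34 with them. The median of all measured genes in this comparison was 0.12, and Fgfr1 was at 0.22 with class sums scaled by median gene ratios.

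Fgfr2 was sparse. It was at 4.06 CPM (2.63 to 6.0) in WT ESCs on 25 UMIs, 4.74 CPM (4.12 to 5.43) in KO ESCs, 7.07 CPM (5.14 to 9.5) in WT 48h-EpiLCs and 7.57 CPM (6.89 to 8.31) in KO 48h-EpiLCs. At neither stage was a difference between the lines detectable at this depth. The log2 ratio of 48h-EpiLC over ESC was 0.80 (0.06 to 1.57) in WT and 0.68 (0.44 to 0.92) in KO. On the log2(CPM + 1) scale the WT ratio was 0.67, and 0.20 when each cell was thinned to 5000 UMIs. The KO ratio was 0.58, and 0.86 without feeder-like and endoderm-like cells. The annotated span of Fgfr2, chr7:130162451-133123350 on the minus strand, covers 48 other counted genes in GENCODE M21. The counts were made on another annotation, and the effect of such overlap on them was not tested.

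**Figure D1:**
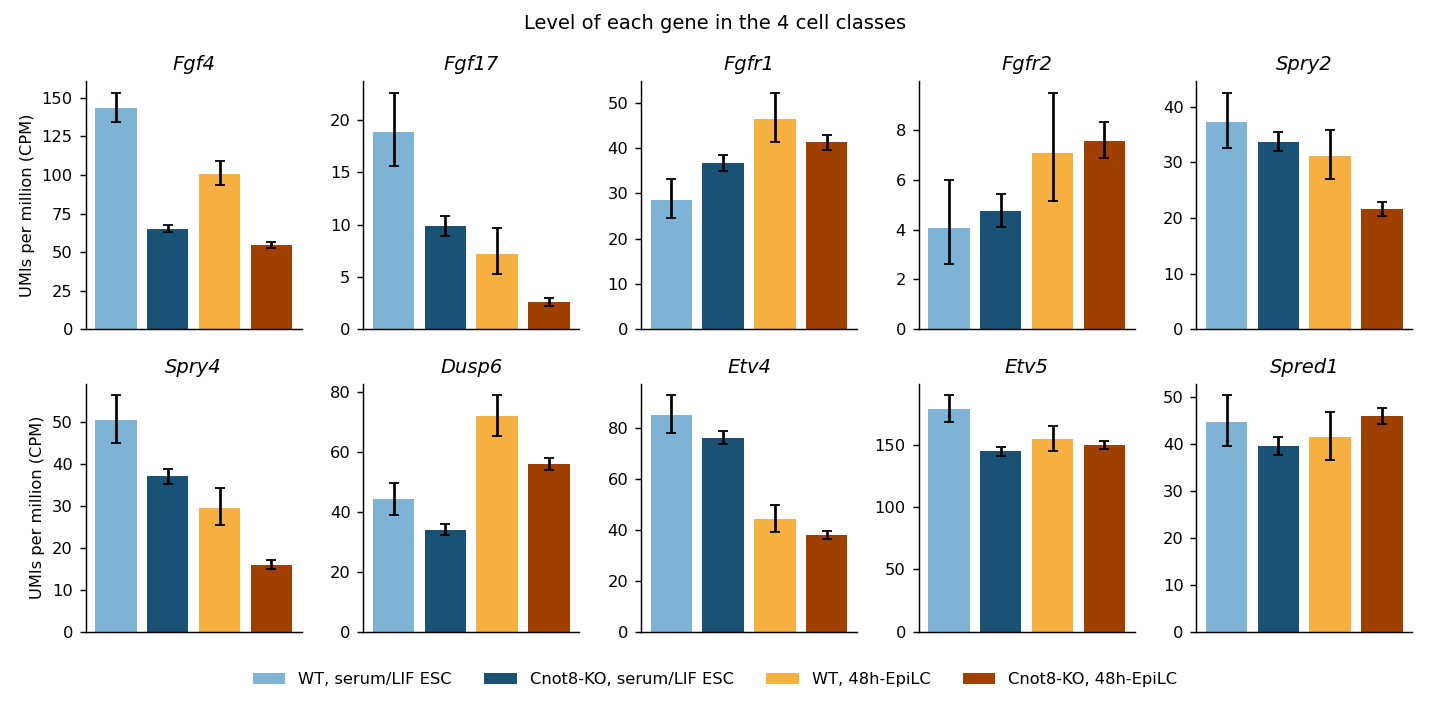
Level of each of the 10 genes in CPM (UMIs per 1000000 UMIs of the class, linear axis from 0, own scale per gene) in WT and Cnot8 KO cells of serum/LIF ESCs and 48h-EpiLCs; error bars are 95% exact Poisson intervals, which cover counting error only. Fgf4 lies at 143 and 101 CPM in WT against 65.3 and 54.7 CPM in KO, whereas Dusp6 is higher in both classes of 48h-EpiLCs.

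Sprouty proteins restrain signalling from receptor tyrosine kinases to ERK. Spry4 (chr18:38586247-38601415, minus strand) was at 50.4 CPM (44.9 to 56.3) in WT ESCs, 37.1 CPM (35.3 to 38.9) in KO ESCs, 29.6 CPM (25.5 to 34.2) in WT 48h-EpiLCs and 16.0 CPM (15.0 to 17.1) in KO 48h-EpiLCs. Its 4 levels were all separated beyond counting error, with KO below WT at each stage and 48h-EpiLCs below ESCs in each line. The KO over WT log2 ratio was -0.44 (-0.62 to -0.26) in ESCs and -0.89 (-1.12 to -0.65) in 48h-EpiLCs. Spry2 (chr14:105891947-105896819, minus strand) was at 37.4 CPM (32.7 to 42.5) in WT ESCs, 33.8 CPM (32.1 to 35.5) in KO ESCs, 31.2 CPM (27.0 to 35.9) in WT 48h-EpiLCs and 21.6 CPM (20.4 to 22.8) in KO 48h-EpiLCs. Here only the KO 48h-EpiLCs stood apart from the other 3 classes, whose adjacent levels overlapped. The Spry2 log2 ratio of KO over WT was -0.15 (-0.35 to 0.06) in ESCs and -0.53 (-0.75 to -0.31) in 48h-EpiLCs.

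Spred1, which limits Ras activity by recruiting neurofibromin, hardly varied. It was at 44.7 CPM (39.6 to 50.3) in WT ESCs, 39.6 CPM (37.7 to 41.5) in KO ESCs, 41.5 CPM (36.6 to 46.9) in WT 48h-EpiLCs and 45.9 CPM (44.2 to 47.7) in KO 48h-EpiLCs. Adjacent levels of this gene at chr2:117121374-117182279 (plus strand) overlapped throughout the order. The highest class, KO 48h-EpiLCs, exceeded the lowest, KO ESCs, by 1.16-fold (log2 ratio 0.21, 0.13 to 0.30), which was beyond counting error.

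Dusp6, a phosphatase that removes the activating phosphates of ERK, was the one inhibitor among the 10 genes that was more than 1.5-fold higher in 48h-EpiLCs than in ESCs, in both lines. It was at 44.2 CPM (39.1 to 49.8) in WT ESCs, 34.1 CPM (32.4 to 35.8) in KO ESCs, 71.9 CPM (65.4 to 78.8) in WT 48h-EpiLCs and 56.0 CPM (54.1 to 57.9) in KO 48h-EpiLCs. All 4 levels were separated beyond counting error. The stage log2 ratio was 0.70 (0.48 to 0.92) in WT and 0.72 (0.63 to 0.81) in KO, and the KO over WT log2 ratio was -0.38 (-0.56 to -0.18) in ESCs and -0.36 (-0.50 to -0.21) in 48h-EpiLCs. Dusp6 lies on chr10:99263231-99267489 (plus strand). Its promoter, chr10:99262981-99263280 on the plus strand (RefSeq, GRCm38.p6), is shown because the gene went with stage in the direction opposite to Fgf4, Spry4 and Etv4, and it held no GGGCGG on either strand.
Dusp6 promoter: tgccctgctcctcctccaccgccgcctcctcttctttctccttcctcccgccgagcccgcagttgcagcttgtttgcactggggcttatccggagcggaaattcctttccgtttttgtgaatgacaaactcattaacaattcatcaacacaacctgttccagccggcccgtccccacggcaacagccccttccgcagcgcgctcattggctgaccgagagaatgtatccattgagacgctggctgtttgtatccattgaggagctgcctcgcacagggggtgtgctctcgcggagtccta

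Etv4 and Etv5 are ETS-family transcription factors of the PEA3 group and textbook targets of FGF signalling. Etv4 (chr11:101769742-101785371, minus strand) was at 85.1 CPM (78.0 to 92.7) in WT ESCs, 76.2 CPM (73.7 to 78.8) in KO ESCs, 44.2 CPM (39.1 to 49.8) in WT 48h-EpiLCs and 37.8 CPM (36.3 to 39.4) in KO 48h-EpiLCs. Stage set most of this spread, with log2 ratios of -0.95 (-1.16 to -0.73) in WT and -1.01 (-1.09 to -0.93) in KO, and the lines differed by -0.16 (-0.29 to -0.02) in ESCs and -0.22 (-0.41 to -0.04) in 48h-EpiLCs. Etv5 (chr16:22381309-22439719, minus strand) was at 178 CPM (168 to 189) in WT ESCs, 145 CPM (141 to 148) in KO ESCs, 155 CPM (145 to 165) in WT 48h-EpiLCs and 149.7 CPM (147 to 153) in KO 48h-EpiLCs. WT ESCs stood above the other classes, and the 2 classes of 48h-EpiLCs were within counting error. The KO over WT log2 ratio of Etv5 was -0.30 (-0.40 to -0.21) in ESCs and -0.05 (-0.14 to 0.05) in 48h-EpiLCs. The paired ETS factors therefore differed from each other in their stage values, since Etv4 had about the same stage ratio in both lines and Etv5 was at -0.20 (-0.33 to -0.08) in WT and 0.05 (0.00 to 0.10) in KO.

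In KO ESCs, 2 of the 10 genes were lower than in WT ESCs by the rule used for all genes. A gene was counted as higher or lower when its log2(CPM + 1) differed by 1.5-fold or more and its mean CPM in the classes compared was at least 5, and 9 of the 10 reached that minimum. Of these, 0 were higher and 2 lower in KO ESCs (Fgf4 and Fgf17), where 12.4% of 9277 genes were higher and 4.98% lower. The median of the 9 genes was -0.30 against 0.12 for all measured genes. Of the 10, 8 had a negative ratio, 36.7% of all genes did, and Fgfr1 and Fgfr2 were above the median of all genes. Class sums scaled by median gene ratios moved the median of all genes from 0.12 to 0.00, and the median of the 9 then stood at -0.43. The alternatives left the number of 2 unchanged.

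In 48h-EpiLCs, 0 of the 9 measured genes were higher and 2 lower in KO (Fgf4 and Spry4), where 8.07% of 9385 genes were higher and 4.3% lower. Fgf17 had a larger difference but fell under the minimum level. The median was -0.22 against 0.07 for all genes. When each cell was thinned to 5000 UMIs, or the cells with the top 10% of UMI totals were left out, Spry2 and Fgf17 were also counted and the number lower was 4. Both comparisons of the lines have separate cells but share each line, and the 10 genes are not independent of each other.

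**Figure D2:**
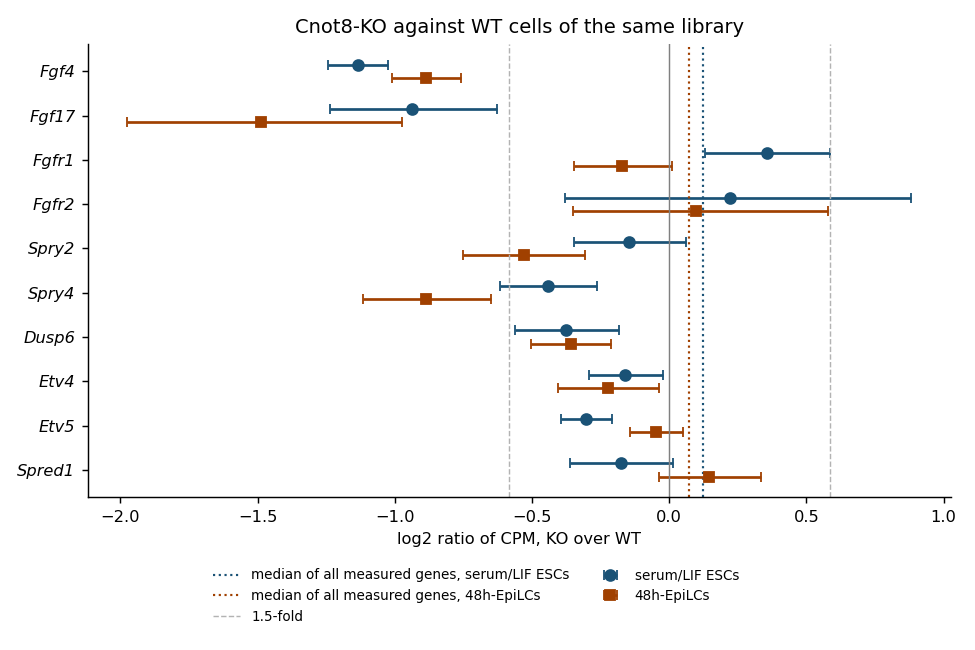
Log2 ratio of CPM, Cnot8 KO over WT cells of the same library, for the 10 genes in serum/LIF ESCs (circles) and 48h-EpiLCs (squares), with 95% exact binomial intervals for counting error; dotted lines are the medians of all measured genes on the log2(CPM + 1) scale and dashed lines mark 1.5-fold. Fgf4 lies at -1.14 and -0.89, and Spry4 and Spry2 are further to the left in 48h-EpiLCs than in ESCs.

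The difference of the KO over WT log2 ratio between the stages was taken per gene as 48h-EpiLC minus ESC. For Spry4 it was -0.44 (-0.74 to -0.15), for Spry2 -0.38 (-0.69 to -0.08) and for Fgfr1 -0.53 (-0.82 to -0.24). These 3 genes were thus relatively lower in KO cells at 48 h than at 0 h. Fgf4 (0.25, 0.08 to 0.42), Etv5 (0.25, 0.12 to 0.39) and Spred1 (0.32, 0.06 to 0.59) had the opposite sign. With each cell thinned to 5000 UMIs, the Spred1 log2(CPM + 1) ratio was -0.06 in ESCs and -0.11 in 48h-EpiLCs, so its sign did not hold. When lines were taken without tdTomato, the ratios at the 2 stages lay closer together. They were -0.78 in ESCs and -0.68 in 48h-EpiLCs for Fgf4, and -0.16 and -0.04 for Etv5. For Fgf17, Fgfr2, Dusp6 and Etv4 the interval included 0.

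Between the stages, the genes split by direction rather than moving as a block. In WT cells 3 of the 10 were higher in 48h-EpiLCs (Fgfr1, Fgfr2 and Dusp6) and 3 lower (Fgf17, Spry4 and Etv4), where 13.3% of 9242 genes were higher and 11.4% lower. In KO cells 1 was higher (Dusp6) and 4 lower (Fgf17, Spry2, Spry4 and Etv4), where 8.55% of 9478 genes were higher and 10.1% lower. Fgfr2 fell just short of 1.5-fold in KO, at 0.58 on the log2(CPM + 1) scale and 0.48 to 0.86 in the alternatives. Its call in WT but not in KO is thus no difference between the lines. Spry2 and Spry4 were lower at 48 h in KO, with log2 ratios of -0.64 (-0.75 to -0.54) and -1.21 (-1.33 to -1.10). Spry1, a further Sprouty gene outside the 10, was higher at 48 h, at 17.8 against 8.77 CPM in ESCs for WT and 22.0 against 10.4 CPM for KO (log2 ratio in KO 1.09, 0.93 to 1.24). In WT, Spry4 was at -0.77 (-1.04 to -0.50) and Spry2 at -0.26 (-0.54 to 0.02). The medians of the 10 genes were -0.23 in WT and -0.10 in KO, against 0.03 and -0.02 for all genes. Each stage comparison uses the same 2 libraries, and each shares its classes with the comparisons of the lines.

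**Figure D3:**
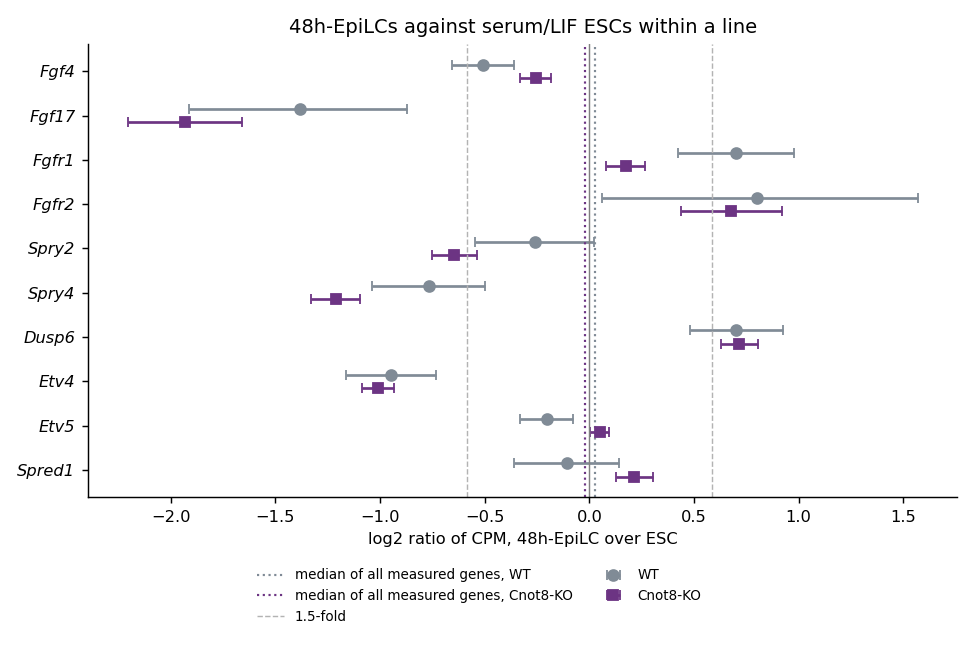
Log2 ratio of CPM, 48h-EpiLC over serum/LIF ESC, within WT (circles) and Cnot8 KO (squares) cells, with 95% exact binomial intervals for counting error; dotted lines are medians of all measured genes on the log2(CPM + 1) scale and dashed lines mark 1.5-fold. Dusp6 lies at 0.70 and 0.72 and Etv4 at -0.95 and -1.01, and for both genes the 2 lines have the same direction.

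At equal depth the shares of cells with a UMI gave the same order for Fgf4. With each cell thinned to 5000 UMIs, 46.1% of WT ESCs (41.3 to 50.9, exact Clopper-Pearson interval), 26.7% of KO ESCs (25.1 to 28.3), 38.1% of WT 48h-EpiLCs (33.2 to 43.3) and 22.3% of KO 48h-EpiLCs (20.8 to 23.8) held an Fgf4 UMI. Unthinned, the shares were 75.6%, 53.5%, 70.4% and 55.5%. Feeder fibroblast-like cells, which should lack Fgf4, gave 11.4% thinned and 26.9% unthinned at a median depth of 15049 UMIs, beside 9.73% and 37.3% for Pou5f1, the gene of the pluripotency factor Oct4. The share for Fgf4 in KO ESCs stood above this background. The thinning left out 1 WT and 23 KO ESCs, and 1 WT and 9 KO 48h-EpiLCs, as too shallow.

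Dusp6 was found in 18.0% of WT ESCs, 15.9% of KO ESCs, 30.8% of WT 48h-EpiLCs and 23.3% of KO 48h-EpiLCs after thinning, and Spry4 in 19.8%, 15.5%, 12.8% and 7.11%. Unthinned, the shares were 39.8%, 34.6%, 62.2% and 59.0% for Dusp6 and 41.8%, 36.7%, 34.0% and 24.2% for Spry4. Feeder-like cells of the ESC library, which may express both genes, gave 14.1% and 7.03% thinned. They are no background for the 48h-EpiLC library, which held too few such cells for a share of its own. Across the 45 pairs of the 10 genes, correlations over KO cells thinned to 5000 UMIs lay between -0.03 and 0.05 in ESCs and between -0.03 and 0.06 in 48h-EpiLCs. Over the fewer WT cells they lay between -0.11 and 0.15 in 434 ESCs and between -0.09 and 0.16 in 367 48h-EpiLCs. At these sparse counts none of these ranges is a finding.

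**Figure D4:**
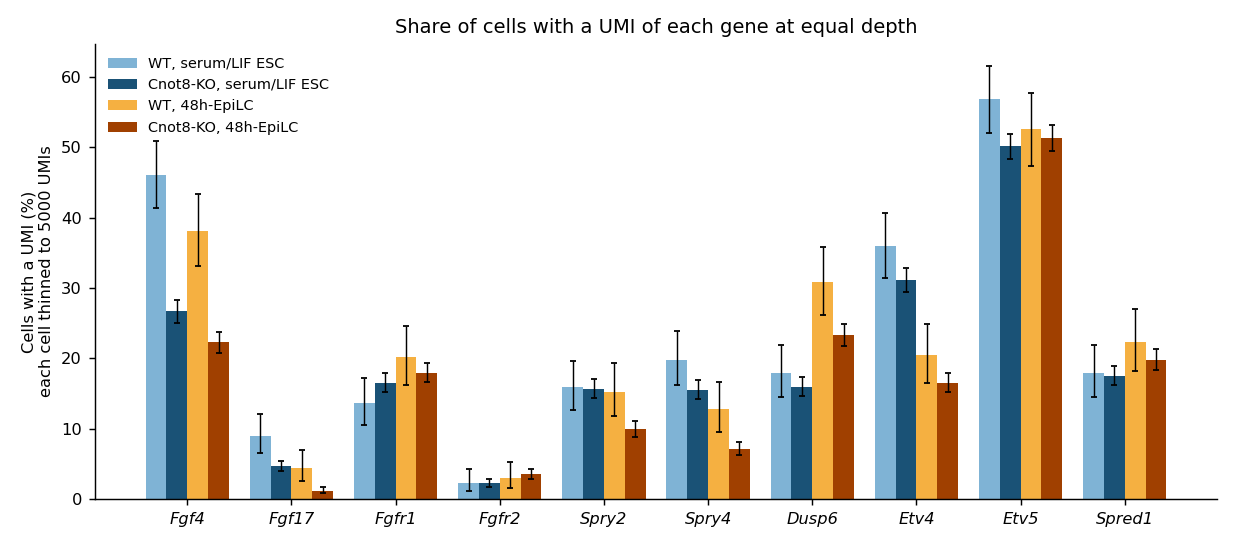
Percentage of cells with at least 1 UMI of each gene after every cell was thinned to 5000 UMIs, in the 4 classes, with 95% exact Clopper-Pearson intervals for counting error. Etv5 is found in 56.9% of WT ESCs and in 50.2% to 52.6% of the cells of the other classes, and Fgf4 in 46.1% of WT and 26.7% of KO ESCs.

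Within the ESC library, Fgfr2 and both ligands differed between endoderm-like and other cells, in opposite directions. Cells with at least 10 UMIs of a primitive endoderm marker list were called endoderm-like and cells with at least 5 UMIs of a feeder list feeder-like, both thresholds set after the distributions had been seen. There were 197 endoderm-like and 193 feeder-like cells, with 100 and 116 cells near the 2 thresholds. The median endoderm-like cell held 21 UMIs of the endoderm list, 0 of the feeder list and 13 of the pluripotent list, against 24 of the pluripotent list in the other cells. Fgfr2, the receptor known to mark primitive endoderm precursors, was at 34.1 CPM in endoderm-like cells and 3.97 CPM in the other kept cells (log2 ratio 3.10, 2.77 to 3.42). Fgf4 was at 19.3 against 90.2 CPM (-2.23, -2.65 to -1.83) and Fgf17 at 2.59 against 15.0 CPM (-2.53, -3.85 to -1.48).

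Fgfr1 did not separate these cells, at 29.3 against 32.1 CPM (-0.13, -0.47 to 0.19). Spry2 (0.74, 0.50 to 0.96) and Spry4 (0.49, 0.26 to 0.72) were higher in endoderm-like cells, whereas Etv4 (-0.87, -1.15 to -0.61), Spred1 (-0.67, -1.03 to -0.32), Etv5 (-0.62, -0.80 to -0.45) and Dusp6 (-0.43, -0.78 to -0.11) were lower. The ERK feedback genes thus did not share a direction here. Of the endoderm-like cells 8 were WT and 73 KO, and the library is the only one with enough of them, since the 48h-EpiLC library held 4.

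**Figure D5:**
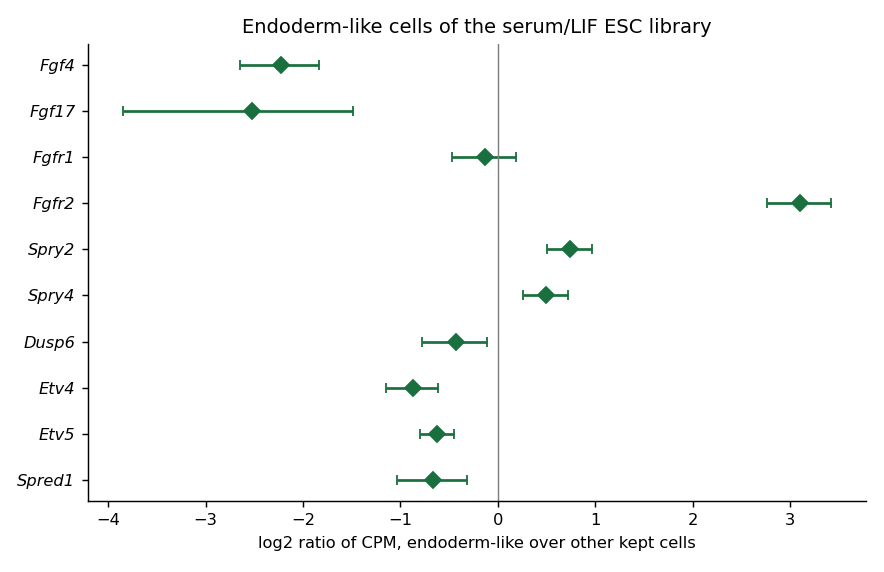
Log2 ratio of CPM of the 10 genes in 197 endoderm-like cells over 10664 other kept cells of the serum/LIF ESC library, with 95% exact binomial intervals for counting error. Fgfr2 lies farthest to the right at 3.10, with Spry2 and Spry4 at 0.74 and 0.49, and Fgf4 and Fgf17 lie at -2.23 and -2.53.

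Nanog, a naïve pluripotency factor, and Fgf5, a formative marker, served to order cells within a class. Among KO ESCs, the 591 cells with at least 2 Nanog UMIs had more Fgf4 (81.0 against 57.1 CPM, log2 ratio 0.51, 0.38 to 0.63) and more Fgf17 (14.4 against 8.15 CPM, 0.82, 0.50 to 1.14) than the 1654 cells with none. In WT ESCs the same ratios were 0.29 (0.06 to 0.53) and 0.85 (0.19 to 1.52). Fgfr1 differed between the lines, at 0.69 (0.15 to 1.24) in WT and -0.17 (-0.35 to 0.01) in KO ESCs. In KO ESCs Fgfr2 was lower (-0.68, -1.25 to -0.14) and Etv5 higher (0.16, 0.07 to 0.25) in the cells with Nanog. The intervals of these 2 genes included 0 in WT ESCs. Among KO 48h-EpiLCs, the 518 cells with at least 2 Fgf5 UMIs had more Spry2 (25.4 against 19.3 CPM, 0.39, 0.19 to 0.59) and less Etv4 (32.9 against 39.7 CPM, -0.27, -0.43 to -0.11) than the 1846 cells with none, and more Fgf4 (62.9 against 50.9 CPM, 0.30, 0.18 to 0.43). In WT 48h-EpiLCs the intervals for Spry2 (0.22, -0.32 to 0.74) and Fgf4 (-0.06, -0.35 to 0.23) included 0. Etv4 was also lower in the Fgf5-high WT 48h-EpiLCs (-0.61, -1.10 to -0.14). The sets also differed in depth, with medians of 15368 against 12764 UMIs for the KO ESCs and 20998 against 16710 UMIs for the KO 48h-EpiLCs. The part of depth in these ratios was not tested.

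A list of 82 further genes of the pathway, grouped by role, was counted with the same rule. In ESCs 47 reached the minimum, with 6 higher and 3 lower in KO, close to the 12.4% and 4.98% of all genes. In 48h-EpiLCs 53 did, with 5 higher and 8 lower, where 8.07% and 4.3% of all genes were. The intermediates from receptor to kinase were nearly flat, with 1 of 20 measured adaptor and cascade genes higher in KO ESCs (Mapk3, which encodes ERK1, log2 ratio 0.60, 0.40 to 0.81) and none of 22 past the threshold in 48h-EpiLCs. Of 10 measured ERK-responsive targets, 1 was higher and 2 lower in KO ESCs, and 1 was higher and 5 lower in KO 48h-EpiLCs, beside the same shares of all genes. Tcf15, a transcription factor linked to the exit from the naïve state, was at 30.9 against 140.4 CPM in KO and WT ESCs (-2.18, -2.31 to -2.06) and at 37.6 against 129.9 CPM in 48h-EpiLCs (-1.79, -1.90 to -1.67). The other lower target in ESCs was Ier2 (85.6 against 147 CPM, -0.78, -0.88 to -0.67). The one higher target in ESCs was Etv1, the third PEA3 factor (51.2 against 25.7 CPM, 1.00, 0.76 to 1.24). The one higher target in 48h-EpiLCs was Phlda1, at 9.19 against 4.66 CPM (0.85 on the log2(CPM + 1) scale). Ier3 was at 34.4 against 132 CPM (-1.94, -2.05 to -1.82) in 48h-EpiLCs. The immediate-early genes Fos and Egr1 were at 14.1 against 44.4 CPM (-1.65, -1.85 to -1.45) and 74.5 against 141 CPM (-0.92, -1.03 to -0.81) in KO and WT 48h-EpiLCs.

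The group of genes listed as other feedback inhibitors did not share one direction. In KO ESCs 3 of 10 measured were higher and 0 lower, where 12.4% and 4.98% of all genes were. In KO 48h-EpiLCs 2 of 11 were higher and 2 lower, where 8.07% and 4.3% of all genes were. Dusp4, an ERK phosphatase of the nucleus, was at 37.4 CPM in KO and 15.1 CPM in WT ESCs (1.31, 1.01 to 1.63) and at 75.1 and 41.6 CPM in 48h-EpiLCs (0.85, 0.67 to 1.04), and Spred2, a relative of Spred1, was at 49.3 and 24.5 CPM in ESCs (1.01, 0.77 to 1.25). Lgals3, the third of those higher in ESCs and the other one higher in 48h-EpiLCs, had log2 ratios of 1.16 (0.98 to 1.34) and 1.80 (1.38 to 2.26). It was placed in this group by the list but is not an established feedback inhibitor of ERK. The counts of higher genes include it at both stages. Dusp1 and Spred3 were lower in KO 48h-EpiLCs, as Spry4 was, at 40.8 against 92.6 CPM (-1.18, -1.31 to -1.05) and 4.59 against 9.16 CPM (-0.998, -1.41 to -0.56). Among other ligands, Fgf5 was at 2.76 CPM in WT ESCs, 1.29 CPM in KO ESCs, 53.4 CPM in WT 48h-EpiLCs and 35.9 CPM in KO 48h-EpiLCs. Fgf8, of the same subfamily as Fgf17, was at 13.2 CPM in WT and 6.24 CPM in KO 48h-EpiLCs (-1.08, -1.43 to -0.72). Between the stages, 17 of 52 measured genes of the list were higher and 5 lower in WT 48h-EpiLCs, where 13.3% and 11.4% of all genes were. In KO, 11 of 50 were higher and 5 lower, where 8.55% and 10.1% of all genes were, so the lower counts were near the share of all genes in both lines. Of the other feedback inhibitors, 6 of 11 measured were higher and 1 lower in WT 48h-EpiLCs, and 4 of 10 higher and 2 lower in KO. Dusp4 was thus higher at 48 h, as Dusp6 was (1.46, 1.12 to 1.82, in WT and 1.01, 0.92 to 1.09, in KO). Lgals3 was lower at 48 h in both lines.

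The genes whose 4 levels, on the log2 scale and centred on their mean, lay nearest to those of Fgf4 among 5575 candidates were Rnf17, Taf13 and Lamtor3, at distances of 0.23, 0.25 and 0.26. For Dusp6 they were Nabp2, Cadm1 and Tmem230, at 0.08, 0.09 and 0.10. The likeness is over 4 classes only.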

How the data were processed

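The deposited values were UMI counts of genes in cell barcodes. The authors obtained them from 10x 3′ libraries by running Cell Ranger (version 3.0.2, default parameters) on mm10 plus the tdTomato coding sequence. The submitters' processing notes also name Seurat (version 4). No correction for free RNA was stated. The ESC and 48h-EpiLC libraries held 144584246 and 163771168 UMIs. The members, gene lists and measures were chosen with earlier results of these data known, and genes were named as members, by the largest differences per role (up to 4 per group and comparison) or by nearest pattern (3 genes).

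Counts were summed over the cells of a class and scaled to CPM. Ratios of member levels are of CPM, and counts past 1.5-fold and medians are of log2(CPM + 1) at a mean of at least 5 CPM. Exact 95% intervals (Poisson, conditional binomial, Clopper-Pearson) cover counting error only, so differences have no replicate check. Doublets were kept, and 2 of 13 alternatives removed 10% of cells as doublet-like. Ratios were computed on simulated Poisson counts with 200 changed genes. These counts hold counting error only, so they say nothing about variation between cells, lines or libraries. Of the 32286 features, 99.8% were found by identifier in GENCODE M21 (GRCm38), and 6 of the 10 genes in the RefSeq promoter table. Python 3.11.15, numpy 2.4.6 and scipy 1.17.1 were used.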

Additional observations from a re-analysis of the deposited data

Results flagged for a closer look

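Etv5 had opposite signs between the stages in the 2 lines. Its log2 ratio of CPM, 48h-EpiLC over ESC, was -0.20 in WT cells and 0.049 in KO cells. The difference was not tested, since there is 1 library per stage, and both ratios are under the 1.5-fold threshold.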

How the results depend on the processing

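With 13 alternatives for each of 4 comparisons, all 52 medians of the 10 genes kept their sign and moved by less than their spread, and 50 of 52 numbers past 1.5-fold stayed within 1.5 times the reported ones. The exceptions were both for KO over WT in 48h-EpiLCs, where 2 genes became 4 without the cells of the top 10% of UMI totals and 4 with each cell thinned to 5000 UMIs. Of 520 single-gene ratios, 11 moved by more than their counting interval. The sign turned in some alternatives for Fgfr2 (3), Spry2 (1) and Spred1 (1 and 2), all with intervals that include 0. No paired analysis was possible because each stage has 1 library. Fgf17 and Fgfr2 are limited by depth, at 25 to 45 UMIs in their sparsest WT classes.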
